A study of Mus musculus with 32 samples.

Results

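Heat shock proteins were followed in UB/OC-1, a mouse cell line made from the embryonic hearing organ and kept dividing by a switchable immortalizing gene, through the first 14 days after its culture temperature was raised. The set held 10 listed genes: the Hsp90 genes Hsp90aa1 and Hsp90ab1, the Hsp70 family genes Hspa8, Hspa14 and Hspa4, Hsph1, the mitochondrial chaperonin genes Hspd1 and Hspe1, and the small heat shock protein genes Cryab and Hspb1. Members were every probe set whose platform gene symbol was one of these names, which gave 13 of the 13057 probe sets that were not controls, 9 on array design a and 4 on design b, for 9 of the 6137 genes that have a probe set of their own symbol. Hsp90ab1 had no probe set under that symbol and was not analysed here. All 13 probe sets passed the filter on dim signals.

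Each RNA sample came from UB/OC-1 cells at 33 °C, where the labels call the line undifferentiated (day 0), or from cells held at 39 °C, its differentiating condition (all later days). Experiment A covered 12 time points, days 0 to 9, 11 and 14, and experiment B, a replica, covered days 0, 2, 4 and 9, so that each of the array designs a and b measured 16 samples. The early phase took in days 1 to 3 (4 arrays of each design), the middle phase days 4 to 7 (5 arrays) and the late phase days 8 to 14 (5 arrays), beside 2 arrays at day 0, and the 3 comparisons with day 0 share their day 0 arrays. Every 39 °C culture was compared with a 33 °C culture of an earlier time. Temperature, the state of the immortalizing gene, cell division, differentiation and time in culture therefore cannot be told apart against day 0. The late and early phases were both at 39 °C. All samples are of a single immortalized line, and the labels do not say that days came from separate cultures. A p-value here therefore covers the spread among these samples alone, which may be technical, and the number of arrays limits the precision.

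Heat shock proteins are chaperones: they bind unfolded or partly folded proteins, hold them in solution and help them reach or regain their folded state, mostly in cycles driven by ATP. When unfolded proteins build up, for instance in heat, the transcription factor HSF1 is freed from chaperones, forms trimers and binds heat shock elements, short repeats of GAA and its complement TTC, in the promoters of many of these genes. Some members, such as Hspa8, are made in unstressed cells as well, and in the cochlea the stress response is known as one that protects hair cells from noise and from drugs that damage hearing.

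Of the listed marker genes with a probe set, values were above the floor, the level below which a design's signals were not resolved (intensity 141 on design a and 198 on design b), on at least 8 arrays for 4 of 7 otic genes (Bmp4, Eya1, Gata3, Pax2) and 3 of 6 hair cell genes (Myo6, Myo7a, Pvalb). A gene was counted if any of its probe sets passed. The Pvalb probe sets were above the floor on 12, 0 and 2 arrays, and those of Myo6 on 10 and 3. The hair cell transcription factors Atoh1 and Gfi1 and the otic progenitor factor Sox2 were above the floor on 0 of 16 arrays. Outside the inner ear lists the same held for 1 of 5 epithelial, 3 of 6 mesenchymal, 3 of 5 macrophage, 4 of 5 skeletal muscle, 3 of 6 melanocyte and glia and 1 of 4 endothelial genes. The control ratio of the 3′ to the 5′ Gapdh probe sets, which rises with degraded RNA, ran on design a from 0.759 to 1.5 at day 0, 0.857 to 1.67 early, 0.847 to 2.65 in the middle phase and 0.770 to 1.59 late. On design b it ran from 0.795 to 0.994 at day 0, 0.889 to 1.29 early, 0.865 to 2.56 in the middle phase and 0.866 to 1.59 late. The ratio split by experiment: design a gave 0.759 to 0.857 in B and 1.05 to 2.65 in A. Design b gave 0.795 to 0.889 in B and 0.994 to 2.56 in A. Both highest ratios were on day 6 of A. Experiment B gave 1 of 2 day 0 arrays but 1 of 5 late arrays, so the split falls unevenly on the contrasts with day 0. The part of this ratio in the results was not tested. Between 44.3% and 50.8% of the probe sets of an array were above the floor on design a and between 30.9% and 40.4% on design b.

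Upstream sequence is shown for the member genes whose windows hold a heat shock element, among them Hspd1 and Hspe1, which share 1 such element. Whether such an element goes with a change in level was not tested. The element was searched for as GAA and TTC triplets in turn with 2 bases between them (GAANNTTC or TTCNNGAA, each the same read on either strand; matches of 3 triplets contain overlapping matches of 2), in windows from 250 bases before to 50 bases after each start site in RefSeq sequence of build GRCm38.p6. The table of windows held 8 for 6 of the member genes (Hspd1 and Hsph1 with 2 start sites each). It held none under Cryab, Hspa8, Hsp90aa1 or Hsp90ab1, so these genes were not searched. A match with 2 triplets lay in 5 of these 8 windows, those of Hspb1, Hspd1, Hspe1 and Hsph1, against 15.06% of all 32851 windows. A match with 3 triplets lay in 4 of the 8 windows, those of Hspd1, Hspe1 and Hsph1, against 0.6% of all windows. These 4 windows hold 2 distinct matches, since both Hsph1 windows contain the same bases and Hspd1 and Hspe1 share theirs. The 2-triplet matches of these windows are shared in the same way, so the 5 windows are not separate cases. In the windows of Hspa4 and Hspa14 these letters were not found. A match is a description of the letters and not a site that was shown to be bound. The stretches below run 5′ to 3′ on the strand of the gene, with the triplets and the bases between them in capitals.
Hspe1, chr1:55087998-55088147, plus strand, ending at the base before its start site: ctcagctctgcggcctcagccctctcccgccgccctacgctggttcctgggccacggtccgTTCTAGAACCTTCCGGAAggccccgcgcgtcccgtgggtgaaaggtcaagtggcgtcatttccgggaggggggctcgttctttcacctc
Hspd1, chr1:55088033-55088102, minus strand: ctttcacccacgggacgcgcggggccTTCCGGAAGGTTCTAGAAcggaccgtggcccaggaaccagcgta
Hspb1, chr5:135887769-135887868, plus strand: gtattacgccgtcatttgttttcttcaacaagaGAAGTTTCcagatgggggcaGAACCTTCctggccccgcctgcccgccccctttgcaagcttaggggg
Hsph1, chr5:149636316-149636415, minus strand: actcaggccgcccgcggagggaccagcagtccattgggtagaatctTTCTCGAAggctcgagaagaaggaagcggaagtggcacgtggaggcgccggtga

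The capitals of Hspe1 and Hspd1 are the same 18 bases, chr1:55088059-55088076, read on opposite strands: 4 triplets in a row. Hspd1 and Hspe1 are neighbours transcribed away from each other, with start sites 216 bases apart, and their windows share 285 bases. The block begins 89 bases before the start site of Hspe1 and 144 bases before that of Hspd1. The other annotated start site of Hspd1 lies 95 bases from that of Hspe1 and its window held no match. The Hspb1 stretch holds a pair of separate 2-triplet matches, at 117 and 97 bases before the start site. Upstream of Hsph1 there was 1 match of 2 triplets, 54 bases before the start site of the window used, and its 3-triplet match lay in the transcribed bases, which are not printed.

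**Figure D1:**
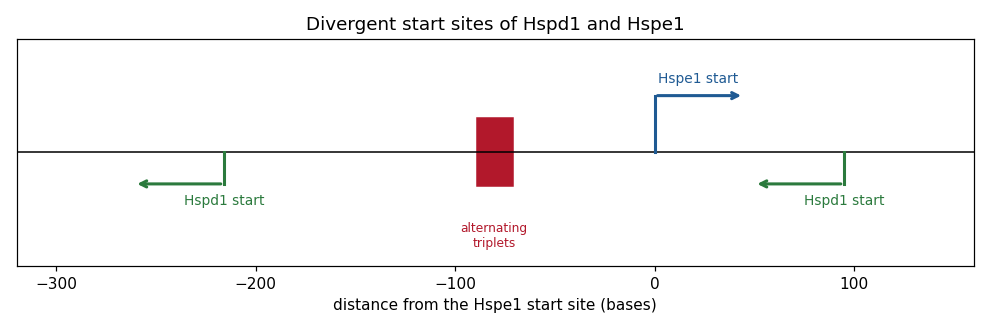
Map of the region between Hspd1 and Hspe1, drawn to scale as distance in bases from the Hspe1 start site, with the annotated start sites as arrows in the direction of transcription and the 4-triplet heat shock element as a block. The block lies between the start sites that are 216 bases apart, 89 bases upstream of Hspe1, and the other Hspd1 start site is drawn 95 bases to the right of 0.

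Against day 0, the chaperonin gene Hspd1, its partner Hspe1 and 1 of the Hspa4 probe sets were lower late in the course, and Cryab and the other Hspa4 probe set were higher. The Hspe1 call lay at the threshold (limma adjusted p 0.0494) and was lost in 17 of 26 alternative runs. The probe sets of Hspe1 and Cryab are shared within a gene family. Levels of Hsp90aa1, Hspa8, Hspa14, Hsph1 and Hspb1 passed no comparison between phases. Early against day 0, 1 of 13 member probe sets was higher, against 1.45% of all 7726 probe sets tested, and 1 was lower, against 2.05%. In the middle phase 3 were higher (3.61% of all) and 2 lower (4.58% of all), and late 3 were higher (4.84% of all) and 3 lower (6.08% of all). These calls are at a limma adjusted p under 0.05 over all probe sets of both designs. An unadjusted p under 0.05 by limma was found for 6 of 13 early, 8 in the middle phase and 9 late, beside 13.1%, 19.5% and 22.4% of all. These counts span both directions and share their day 0 arrays, and some probe sets are of the same gene, so they are a description. The median log2 change of the 13 was -0.11 early, -0.32 in the middle phase and -0.36 late, beside 0.05, 0.08 and 0.11 for all probe sets tested. On arrays of whole cultures, less RNA per cell and fewer cells that hold it cannot be told apart.

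**Figure D2:**
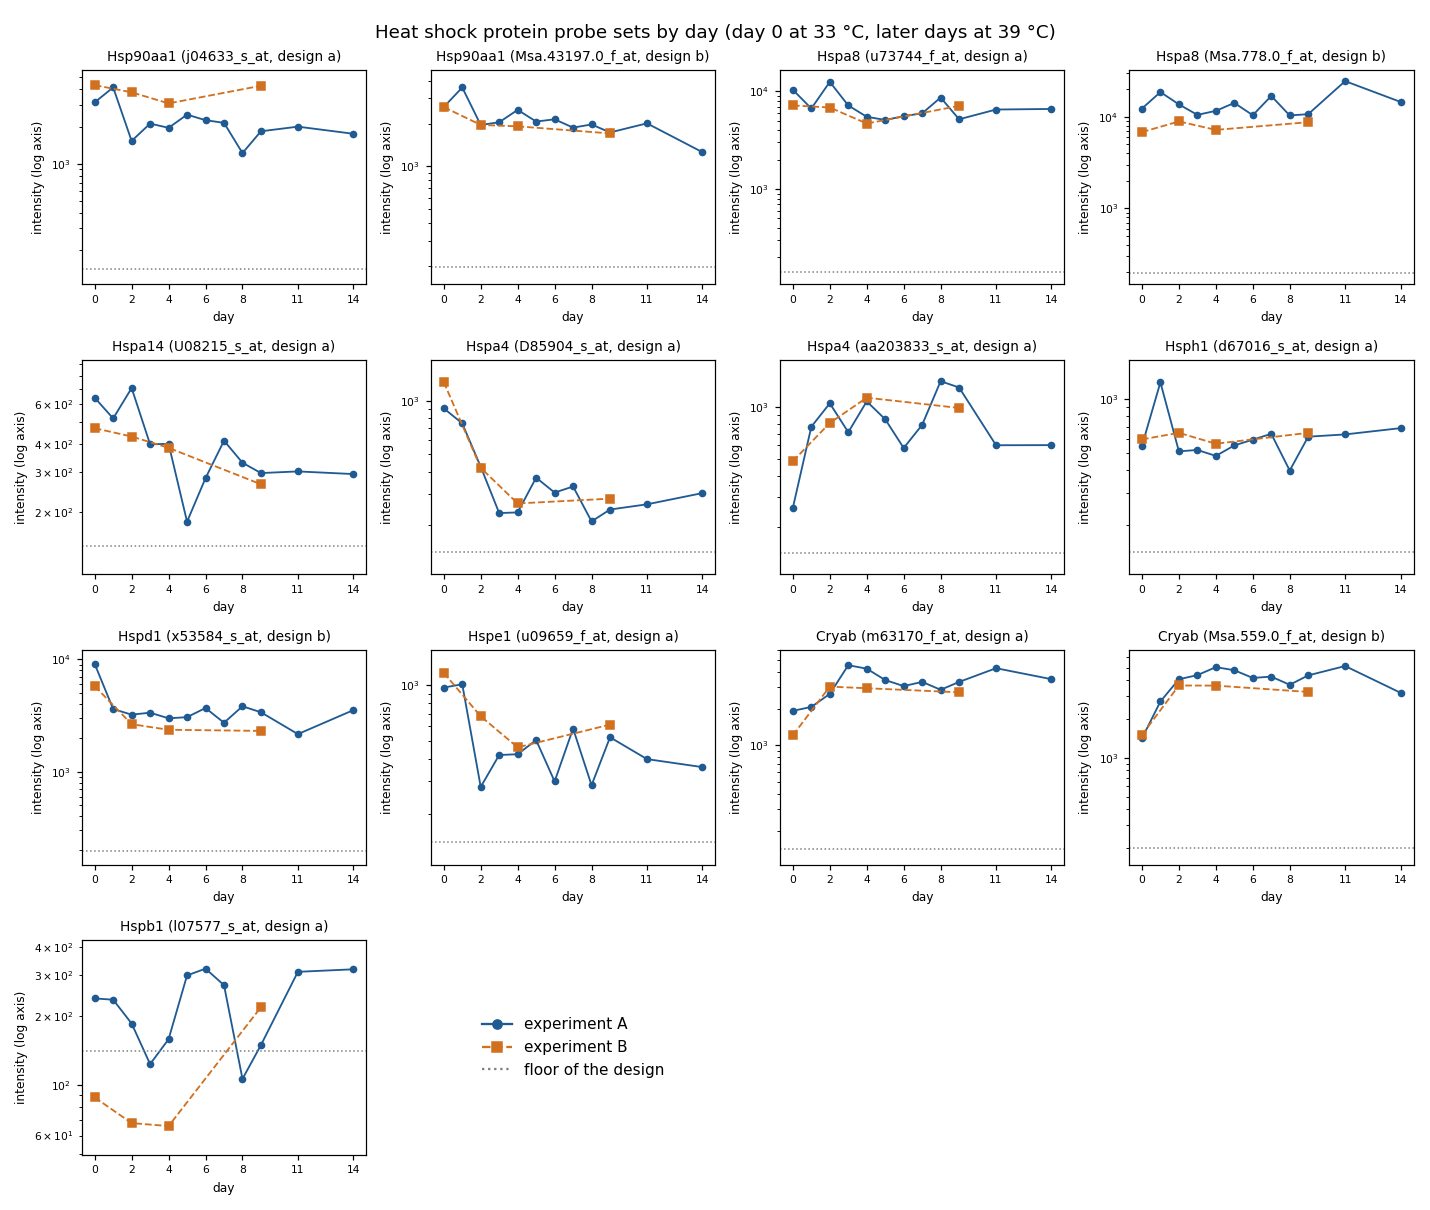
Intensity of each member probe set by day, on a log axis with its own range, for experiment A (solid line, circles) and experiment B (dashed line, squares), with the floor of the design as a dotted line. Hspd1 is highest on both day 0 arrays, both Cryab probe sets are lowest there, and the Hspa4 probe sets run in opposite directions.

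Hsp90aa1 encodes the stress-inducible form of cytosolic Hsp90, the chaperone that brings kinases and steroid receptors to their active state. Its probe set on design a (j04633_s_at) read 3141 in experiment A and 4333 in experiment B on day 0. It then read 4153, 1531 and 2116 on days 1, 2 and 3 of experiment A and 3789 on day 2 of experiment B. The early and day 0 arrays therefore overlap, with day 1 of experiment A and day 2 of experiment B at the level of day 0.

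In the middle phase the same probe set read between 1954 and 3082 (median 2254), and late between 1221 and 4281 (median 1833). The late range includes the day 9 array of experiment B at 4281, which was as high as day 0, while the 4 late arrays of experiment A lay at 1998 or less. The late log2 change was -0.87 ± 0.41 (SE), with an adjusted p of 0.212 (limma), and it passed without day 9 of experiment B (-1.14, adjusted p 0.0406). The level in experiment B over that in experiment A was 1.38, 2.48, 1.58 and 2.34 on days 0, 2, 4 and 9. On design b the corresponding ratios for the second Hsp90aa1 probe set were 0.999, 1.00, 0.766 and 0.984, so the gap between experiments was seen with the first probe set alone.

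The design b probe set is of the kind with a name ending in f_at, whose probes also match relatives of the named gene, so which gene it reports is uncertain. It read 2613 and 2611 on day 0 in experiments A and B, 3585, 1954 and 2043 on days 1, 2 and 3 of experiment A, and 1956 on day 2 of experiment B. Day 1 of experiment A was its highest value of all 16 arrays. Late values ran from 1259 to 2007 (median 1732), below both day 0 arrays. The late change of -0.61 ± 0.28 missed the threshold (limma adjusted p 0.198, 95% confidence interval -1.19 to -0.03).

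Hspa8 encodes the constitutive Hsp70 of the cytosol, which folds new chains, uncoats clathrin vesicles and feeds chaperone-mediated autophagy. Both of its probe sets are shared within a gene family. On design a (u73744_f_at) it read 10382 and 7187 on day 0, 6683, 12515 and 7178 on days 1, 2 and 3 of experiment A, and 6839 on day 2 of experiment B. Middle values ran from 4687 to 5968 (median 5496), below both day 0 arrays, and late values from 5182 to 8649 (median 6611), which overlap them. The middle change was -0.69 ± 0.27, with a limma adjusted p of 0.129 that fell to 0.0486 with experiment as a block (-0.76).

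On design b the signs of the Hspa8 estimates were opposite: 0.44 ± 0.42 early, 0.34 ± 0.41 in the middle phase and 0.48 ± 0.41 late, with limma adjusted p of 0.83, 0.743 and 0.534. Its 16 values spread from 6816 to 24545 (median 11160), with the highest on day 11 of experiment A. The 4 arrays of experiment B, at 6816, 8912, 7207 and 8741, were below all 12 of experiment A, which ran from 10356 upward. The pair of probe sets therefore gives no shared direction for Hspa8.

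Hspa14 encodes an atypical Hsp70 that sits at the ribosome with the J-domain protein Dnajc2, where the pair assists chains as they leave the exit tunnel. Its probe set (U08215_s_at) read 640 and 469 on day 0, and 518, 706 and 398 on days 1, 2 and 3 of experiment A with 431 on day 2 of experiment B. Late values lay between 265 and 330 (median 297), under every day 0 and every early array. The late change against day 0 was -0.88 ± 0.36 (limma adjusted p 0.137), and late against early it was -0.75 ± 0.29 (limma adjusted p 0.321). The late call passed with the higher floor of 271 (adjusted p 0.0382), which raised its own low values of 265 (day 9 of B) and 181 (day 5 of A). It missed the threshold in the other 25 of 26 alternatives (adjusted p up to 0.446).

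Hspa4 encodes an Hsp110-class relative of Hsp70, which works as an exchange factor that frees ADP from Hsp70 and so lets it release its client. It had 2 probe sets on design a, and they moved in opposite directions. The first (D85904_s_at) read 907 in experiment A and 1275 in experiment B on day 0. It read 747, 426 and 234 on days 1, 2 and 3 of experiment A and 420 on day 2 of experiment B. All 14 arrays at 39 °C were lower than both day 0 arrays, with day 1 closest to them.

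Middle values of this Hspa4 probe set ran from 236 to 370 (median 305) and late values from 210 to 303 (median 262). It fell in the middle phase, with a log2 change of -1.85 ± 0.38 (3.62-fold, limma adjusted p 0.00377), and late, with -2.06 ± 0.38 (4.16-fold, adjusted p 0.00132), the largest change among the 13. The early change was -1.35 ± 0.39 (adjusted p 0.0664), which passed with experiment as a block (adjusted p 0.0402). Relative to day 0 of its own experiment it stood at 0.470, 0.260 and 0.270 on days 2, 4 and 9 of experiment A and at 0.329, 0.208 and 0.221 in experiment B. The middle call did not hold in experiment A alone (adjusted p 0.116), nor with the day 0 array of B left out (adjusted p 0.0894).

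The other Hspa4 probe set (aa203833_s_at), whose name carries the accession of an expressed sequence tag, read 259 and 485 on day 0 in experiments A and B. It read 771, 1056 and 716 on days 1, 2 and 3 of experiment A and 811 on day 2 of experiment B, then between 579 and 1139 (median 852) in the middle phase and between 601 and 1422 (median 992) late. All 14 arrays at 39 °C were higher than both day 0 arrays. It rose by 1.29 ± 0.38 in the middle phase (2.44-fold, limma adjusted p 0.0424) and by 1.38 ± 0.38 late (2.6-fold, adjusted p 0.0243). The early change was 1.23 ± 0.39 (adjusted p 0.107), which passed with experiment as a block (1.31, adjusted p 0.0439).

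The size of this rise differed between the experiments in raw ratio: 4.08, 4.19 and 5.04 times day 0 on days 2, 4 and 9 of experiment A, and 1.67, 2.35 and 2.05 times in experiment B. A limma interaction for late against day 0 between the experiments gave 0.77 ± 0.83 with an adjusted p of 1. Without day 0 of experiment A, the lowest array, the late rise was 1.90-fold and no longer called (adjusted p 0.258), and the middle call was lost as well (adjusted p 0.367). Over all alternatives the middle call was lost in 8 of 25 (adjusted p up to 0.367), among them experiment A alone (0.0751), and the late call in 3 of 26. Which of the 2 probe sets reports Hspa4 was not tested, so no direction is given for the gene.

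Hsph1 encodes Hsp105, another exchange factor of the Hsp110 class and a strong target of HSF1. Its probe set (d67016_s_at) read 547 and 594 on day 0 and 1232 on day 1 of experiment A, its highest value. On all other arrays at 39 °C it lay between 399 and 686. Its late change was 0.04 ± 0.34 (limma adjusted p 0.979, 95% confidence interval -0.66 to 0.74).

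Hspd1 encodes Hsp60, which forms the folding chamber of the mitochondrial matrix, and Hspe1 encodes Hsp10, the lid of that chamber. The Hspd1 probe set (x53584_s_at, design b) read 9128 in experiment A and 5796 in experiment B on day 0. Early it read 3617, 3223 and 3356 on days 1, 2 and 3 of experiment A and 2649 on day 2 of experiment B. From day 1 onward all 14 arrays were lower than both day 0 arrays.

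Middle values of Hspd1 lay between 2363 and 3694 (median 2989), and late values between 2162 and 3827 (median 3384). The mean intensity was 7462 ± 2356 (SD, n = 2) at day 0, 3211 ± 409 (n = 4) early, 2968 ± 490 (n = 5) in the middle phase and 3044 ± 756 (n = 5) late. Hspd1 fell in all 3 phases, with log2 changes of -1.19 ± 0.30 early (2.28-fold, limma adjusted p 0.0282), -1.31 ± 0.29 in the middle phase (2.48-fold, adjusted p 0.00611) and -1.30 ± 0.29 late (2.45-fold, adjusted p 0.00545). The level reached on day 1 was thus close to that of the whole later course.

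Day 0 of experiment A carried the largest Hspd1 value, and without it the fall was 1.97-fold in the middle phase (adjusted p 0.131) and 1.96-fold late (adjusted p 0.114), so neither was called. The early call was also lost without day 0 of either experiment (adjusted p 0.297 without that of A and 0.0509 without that of B), when the day 2 array of either experiment or the day 3 array of A was left out (0.0578 to 0.0668), with no filter (0.0869) and with the early phase set to days 1 and 2 (0.0578). Within each experiment the direction was the same: Hspd1 stood at 0.353, 0.328 and 0.371 of its own day 0 on days 2, 4 and 9 of experiment A and at 0.457, 0.408 and 0.398 in experiment B.

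The Hspe1 probe set (u09659_f_at, design a) is shared within a gene family. It read 974 and 1171 on day 0, and 1015, 280 and 418 on days 1, 2 and 3 of experiment A with 679 on day 2 of experiment B. Day 1 of experiment A stood at the day 0 level, and every array after it was lower than both day 0 arrays. Hspd1, read on the design b array of the same day, had already fallen to its later level. This difference rests on 1 array of each design.

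Middle values of Hspe1 ran from 300 to 582 (median 460) and late values from 286 to 612 (median 397). The late change was -1.35 ± 0.43 (2.54-fold lower, limma adjusted p 0.0494), while the early change (95% confidence interval -1.93 to -0.08, adjusted p 0.309) and -1.27 ± 0.43 in the middle phase (adjusted p 0.0775) missed the threshold. The late call lies at the threshold and was lost in 17 of 26 alternatives (adjusted p up to 0.332), with the fold between 2.31 and 2.80. On days 2, 4 and 9 Hspe1 stood at 0.288, 0.433 and 0.536 of day 0 in experiment A and at 0.580, 0.393 and 0.523 in experiment B.

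Cryab encodes αB-crystallin, a small heat shock protein that holds unfolded proteins in large assemblies without using ATP and binds intermediate filaments. It had a probe set on each design, both shared within a gene family. On design b it read 1413 and 1504 on day 0, then 2732, 4063 and 4373 on days 1, 2 and 3 of experiment A and 3635 on day 2 of experiment B. All 14 arrays at 39 °C were higher than both day 0 arrays.

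Middle values on design b lay between 3626 and 5043 (median 4259) and late values between 3190 and 5144 (median 3680). Cryab rose there by 1.32 ± 0.27 early (2.50-fold, limma adjusted p 0.00773), by 1.58 ± 0.26 in the middle phase (2.98-fold, adjusted p 0.000663) and by 1.4 ± 0.26 late (2.64-fold, adjusted p 0.00143). The middle and late calls held in every alternative run, and the early call was lost in experiment A alone (adjusted p 0.0633) and without day 0 of experiment A (0.0618) or of B (0.0749). Relative to its own day 0 it stood at 2.88, 3.57 and 3.08 on days 2, 4 and 9 of experiment A and at 2.42, 2.41 and 2.15 in experiment B.

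On design a (m63170_f_at) Cryab read 1915 and 1209 on day 0, then 2062, 2637 and 4527 on days 1, 2 and 3 of experiment A and 3023 on day 2 of experiment B. Again all 14 arrays at 39 °C were higher than both day 0 arrays, with day 1 only just above them. Middle values lay between 2933 and 4239 (median 3305) and late values between 2715 and 4277 (median 3303).

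The rise on design a was 1.14 ± 0.29 in the middle phase (2.21-fold, limma adjusted p 0.0165) and 1.11 ± 0.29 late (2.16-fold, adjusted p 0.0167), and 0.95 ± 0.30 early, which missed the threshold (adjusted p 0.0954). Both calls were lost in experiment A alone (adjusted p 0.244 and 0.231) and without day 0 of experiment B (0.312 and 0.328). The 2 probe sets thus gave the same direction in all 3 comparisons with day 0. Their arrays are of the same experiments and days, so they are not independent replicates.

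Hspb1 encodes the small heat shock protein known as Hsp25 in mouse, which binds actin and unfolded proteins. Its probe set (l07577_s_at) was dim: values ran from 66 to 321 over the 16 arrays (median 201.5), and 5 of them were at or below the floor of 141. Its late change of 0.23 ± 0.42 was not resolved (limma adjusted p 0.798, 95% confidence interval -0.65 to 1.11).

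**Figure D3:**
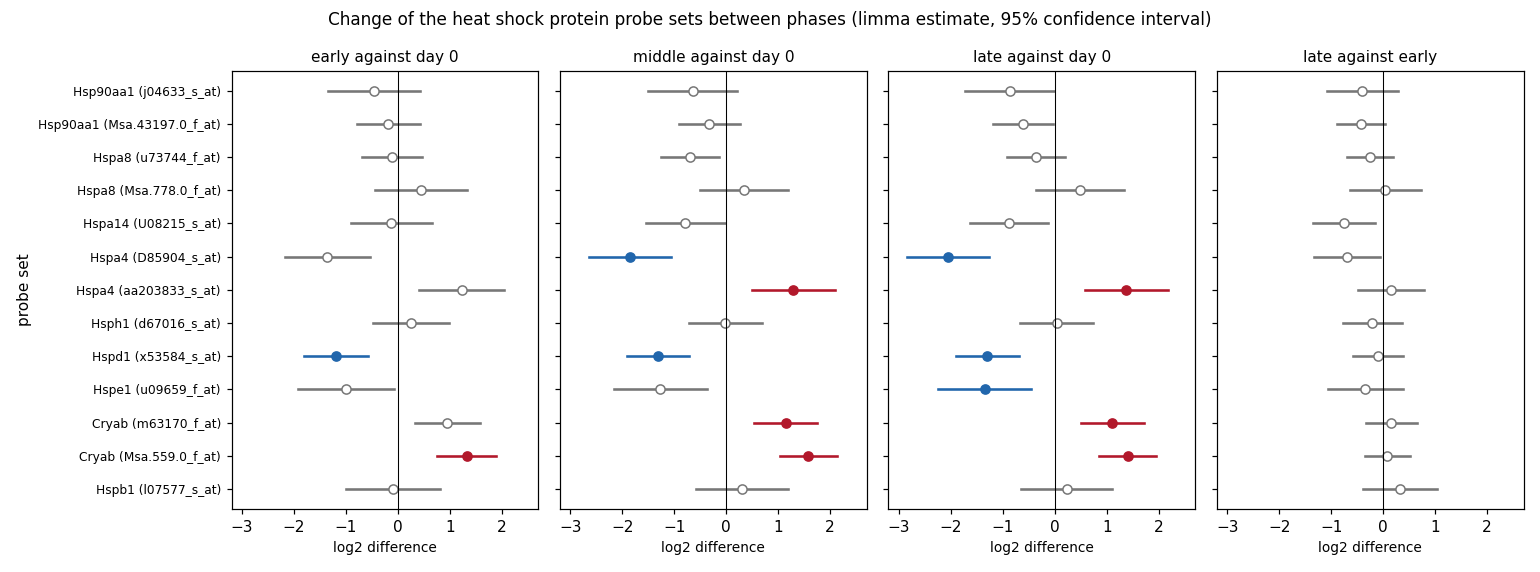
Log2 difference of each member probe set between phases as fitted by limma, with the 95% confidence interval as bars, in panels for each comparison with day 0 and for late against early. The estimates of Cryab lie right of 0 and those of Hspd1, Hspe1 and the Hspa4 probe set D85904_s_at lie left of it in the panels against day 0, while late against early every interval but those of Hspa14 and Hspa4 D85904_s_at includes 0.

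The arrays of the member probe sets were also compared by order alone. In 3 of 13 probe sets (Hspa4 aa203833_s_at and both of Cryab) every 39 °C array was above both day 0 arrays, as in 4.12% of all probe sets tested. In 2 of 13 (Hspa4 D85904_s_at and Hspd1) every 39 °C array was below them, as in 5.63% of all.

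Between the late and early phases, both at 39 °C, 0 of 13 member probe sets passed in either direction by limma (0.427% of all higher and 0.557% lower). An unadjusted p under 0.05 was found for 2 of 13, beside 773 of the 7726 tested, Hspa14 (-0.75 ± 0.29) and Hspa4 D85904_s_at (-0.70 ± 0.30, adjusted p 0.418). For Hspd1 the difference was -0.11 (95% confidence interval -0.59 to 0.37), and for Cryab it was 0.08 on design b (-0.36 to 0.52) and 0.16 on design a (-0.32 to 0.64). A fit of a smooth curve in day over all 16 arrays, with no phases, called 3 of 13 members, against 9.73% of all probe sets. These were Hspa4 D85904_s_at (limma adjusted p 0.000772), Cryab on design b (0.00209) and Cryab on design a (0.00785). Hspe1 (0.055) and Hspd1 (0.0571) missed the threshold. With experiment as a block 6 members were called, the added ones being Hspd1 (limma adjusted p 0.0095), Hsp90aa1 on design b (0.0389) and Hspe1 (0.0399), while the calls over all probe sets rose from 752 to 1241.

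Whether the experiments differed in the change from day 0 was tested as an interaction, with 1 array of experiment B in each phase. By limma 0 of 13 members passed for the late change, against 1.23% of all probe sets, and 0 of 13 for the early change, against 0.712%, with 0 at an unadjusted p under 0.05 in either. The interaction estimates for late ran from -0.89 ± 0.70 (Hsp90aa1 on design a) to 0.77 ± 0.83 (Hspa4 aa203833_s_at), so differences between the experiments of that size were not resolved.

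Day 1 of experiment A was the first array after the change to 39 °C, and experiment B has no day 1, so its values rest on a single sample of each design. It was the highest of all 16 arrays for 2 of 13 member probe sets, Hsph1 (1232) and Hsp90aa1 on design b (3585), against 4.8% of all probe sets tested. It was among the 3 highest arrays for 7 of 13 (24.2% of all), both Hsp90aa1 probe sets among them. That rule was chosen after the values were seen, so the count is a description and not a test. The rest of the 7 were Hspe1 (1015), Hspa8 on design b (18633), Hsp90aa1 on design a (4153), Hspa4 D85904_s_at (747) and Hspa14 (518). Of these, only Hspa8 was above both of its day 0 arrays (12315 and 6816). Hspa4 D85904_s_at was below both of its own (907 and 1275). Hspe1 (974 and 1171 on day 0), Hsp90aa1 (3141 and 4333) and Hspa14 (640 and 469) lay between theirs. Hspd1 ranked 5 of 16 on day 1, and the Cryab probe sets were each among the 3 lowest of 16.

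The genes whose log2 levels ran most like each called member over the 16 arrays of its design are given as a description, since these arrays share their day 0 and later split. For Hspd1 they were Cct2 (Pearson r 0.901) and Cct7 (0.889), both subunits of the cytosolic chaperonin TRiC, and Iars2 (0.884), the mitochondrial isoleucyl-tRNA synthetase. For Hspe1 they were Banf1 (0.938), Psma7 (0.909) and Ccn1 (0.909). For Hspa4 D85904_s_at they were Hmgb3 (0.932), Slc25a5 (0.923) and Aurkb (0.907), and for Hspa4 aa203833_s_at they were Gtf2i (0.905), Gabarapl2 (0.902) and Pip4k2c (0.894). For Cryab they were P4ha1 (0.954), Pltp (0.908) and Ddah2 (0.906) on design a and Ctsd (0.894), Eif4a2 (0.886) and Col6a1 (0.885) on design b.

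Of 56 further genes of the pathway, namely heat shock factors, other Hsp70 and small heat shock proteins, J-domain proteins, exchange factors and cochaperones of Hsp90, 31 had a probe set, and 32 probe sets of 27 genes passed the filter. Late against day 0, 1 of the 32 was higher, beside 4.84% of all probe sets tested, and 1 lower, beside 6.08%, which is near that background. The 1 counted as lower in each comparison with day 0 was Dnajc2, which passed the filter only through its day 0 arrays. Its part in these counts was fixed by the filter and is a description. The median log2 change late was -0.21, beside 0.11 over all. In the middle phase 1 was higher (3.61% of all) and 1 lower (4.58%), with a median of -0.09 beside 0.08. Early 0 were higher (1.45% of all) and 1 lower (2.05%), with a median of 0.07 beside 0.05. An unadjusted p under 0.05 by limma was found early for 2 of 32, or 6.25%, Dnajc2 among them, beside 13.1% of all tested. Late against early 0 of 32 passed by limma, and 0 had an unadjusted p under 0.05. The inducible Hsp70 gene Hspa1a, the testis Hsp70 gene Hspa1l and the heat shock factor gene Hsf2 each had a probe set that was above the floor on 0 of 16 arrays, so their levels were not resolved.

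Dnajc2, the ribosomal partner of Hspa14, was the gene counted as lower (u53208_s_at, design a). It read 491 and 334 on day 0, at most 105 early and at most 99 in the middle phase, where all arrays were below the floor of 141. Late, 4 of 5 arrays were below the floor and the highest read 181. With 3 of 16 arrays above the floor, it passed the filter only because it was high at day 0, so it had to differ and its change is a description with no p-value. It was at least 2.87-fold lower early and in the middle phase, and 2.73-fold lower late, where the fold is understated. The late log2 change was -2.22 with the lower floor of 64 and -0.58 with the higher floor of 271.

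Dnaja1, a J-domain protein that hands clients to Hspa8, was the gene that rose (Z31298_s_at, design b). It read 1005 and 1364 on day 0, 981 to 2609 early (median 2196), 2448 to 3732 in the middle phase (median 2860) and 1792 to 3043 late (median 2655). Middle and late arrays were all above day 0, while the early arrays overlap it. It rose by 1.33 ± 0.34 in the middle phase (2.51-fold, limma adjusted p 0.0202) and by 1.11 ± 0.34 late (2.15-fold, adjusted p 0.0446). The middle call was lost in 4 of 25 alternatives, which were no filter (adjusted p 0.0559), experiment A alone (0.0667) and leaving out day 0 of A (0.186) or of B (0.0699). The late call was lost in 13 of 26 (adjusted p up to 0.258).

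An unadjusted p under 0.05 late was found for 7 of 32 partner probe sets, or 21.9%, beside 22.4% of all tested. That count includes Dnajc2, which had to differ because of the filter. Apart from Dnajc2 and Dnaja1 they were the 5 that follow, none of which was called and which are named here after their values were seen. Hsbp1, which binds HSF1 trimers, had the log2 change 1.25 ± 0.45 (limma adjusted p 0.0884), and Bag3, an Hsp70 exchange factor of selective autophagy, had 1.01 ± 0.48 (0.216). Bag1, another Hsp70 exchange factor, had -1.28 ± 0.60 (0.212) with a probe set on design b that is shared within a gene family, while its probe set on design a had -0.04 ± 0.46 (0.989). Stip1, which bridges Hsp70 and Hsp90, had -0.97 ± 0.37 (0.111), and Nudc, a cochaperone of Hsp90, had -0.93 ± 0.41 (0.183).

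**Figure D4:**
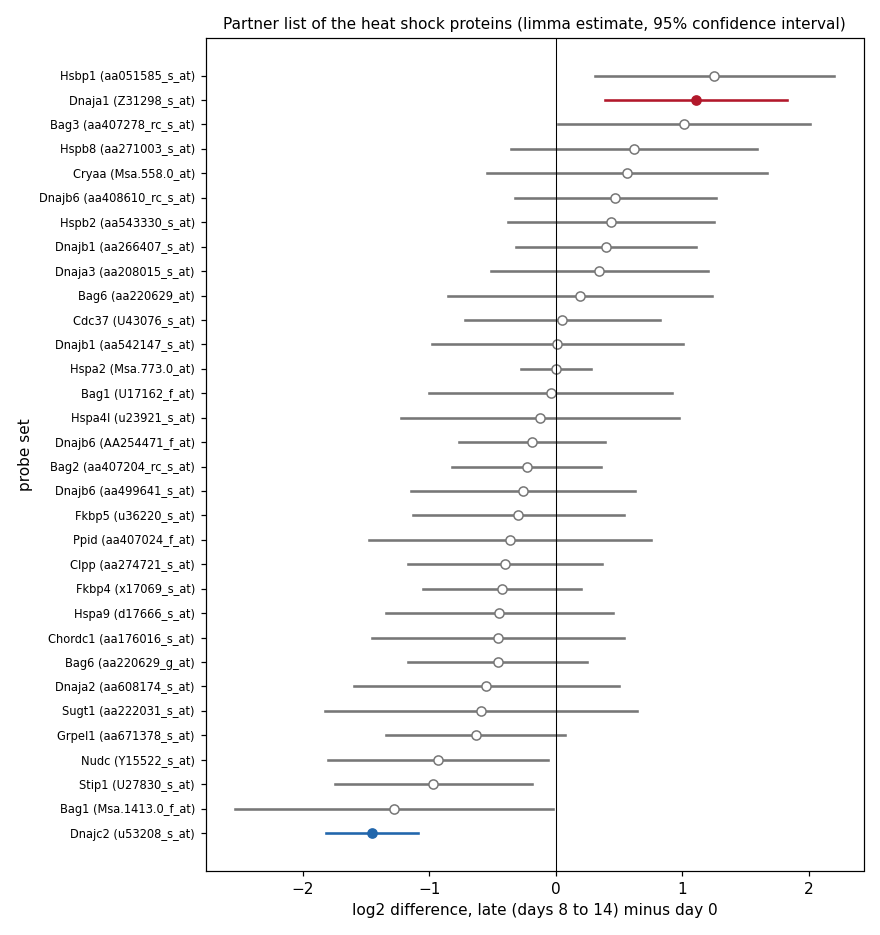
Log2 difference, late minus day 0, of the 32 tested probe sets of the partner list, as fitted by limma with the 95% confidence interval as bars. Dnaja1 (1.11) is called higher, and most other intervals include 0. Dnajc2 (-1.45) is drawn as called too, but it passed the filter only through its day 0 arrays, so its change is a description.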

How the data were processed

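Total RNA of UB/OC-1 cells was measured on 2 array designs with 16 arrays each. The deposited values are linear array intensities, scaled by the authors: whole numbers, of which 22.9% (design a) and 33% (design b) were negative, with a trimmed mean of 300.4 to 300.8 on every array. Which software and background method made them is not given in the sources used here. Values were used as deposited, with no column left unused. Symbols came from the platform annotation (1 symbol for 5541 and 2001 probe sets, several for 197 and 27, none for 785 and 4506), and 61 controls per design were left out.

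Low values were raised to a floor before log2, for which the sizes of a design's negative values were ranked and their 75th percentile taken. A probe set was tested if 2 or more of 16 arrays exceeded the floor, 4294 on design a and 3432 on design b. limma 3.58.1 in R 4.3.3 (lmFit, eBayes with trend and robust, 12 residual degrees of freedom) was fitted for each design, two-sided, and p-values of the pooled designs were adjusted by Benjamini-Hochberg. Change over days was also tested by F on a natural cubic spline (3 degrees of freedom). Days serve as replicates of their phase, and change inside a phase adds to the spread. The fits were tested on simulated data.

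The labels put days into experiments A and B. Differences between the experiments correlated between days across probe sets (r from 0.27 to 0.69 on design a and 0.39 to 0.73 on design b, 6 pairs of days each), so experiment pairs the samples. The main phase and time course fits have no term for experiment and so leave this pairing out. Fits with experiment as a block are given where they change a call. All members were named. Those called in a phase comparison were given with their day 0 and early values by day, and with the range and median of the middle and late phases. The genes most like a called member were the 3 with 1 symbol and the highest Pearson r on log2 values. Promoter windows came from RefSeq tables of GRCm38.p6, matched by symbol. Members and lists were chosen with earlier results of these data known. Alternatives were the block, quantile normalization, other floors and filters, an arcsinh scale, eBayes without trend and robust, experiment A alone, other phase limits and leaving out each array.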

Additional observations from a re-analysis of the deposited data

Results flagged for a closer look

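In groups of 4 or 5 arrays, 39 were examined for a single array far from the rest, and 3 held one. Chance marks about 1 in 20 such groups. The Hsph1 probe set read 399 on day 8 of experiment A, below the other late arrays, of which the nearest read 615. The Hspa8 probe set of design a read 12515 on day 2 of experiment A, above the other early arrays, of which the nearest read 7178. The Hsp90aa1 probe set of design b read 3585 on day 1 of experiment A, above the other early arrays, of which the nearest read 2043.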

How the results depend on the processing

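No member call turned its direction under any alternative run. Early against day 0, the 2 calls became 4 with experiment as a replicate block (the pairing by experiment), 1 with no filter, 1 in experiment A alone and 1 with early as days 1 and 2. Leaving out single arrays gave 0 to 4: 0 without day 0 of experiment A or of B, 4 without day 1 of A, and 1 without day 2 or day 3 of A or day 2 of B. In the middle phase the 5 calls became 2 in experiment A alone and 3 to 6 with an array left out, 3 without either day 0 array. Late, the 6 calls were 4 to 7 under the other alternatives and 3 to 7 with an array left out, 3 without day 0 of experiment A. The time course called 6 in place of 3 with the replicate block, 6 at the higher floor, 5 with a filter on 8 arrays and 2 to 5 with an array left out. Late against early, and for the difference between the experiments, the count stayed at 0 in each alternative run, those for the latter being chosen after seeing the data. The cause of these shifts was not tested.

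Over all probe sets, the 270 early calls became 469 with the block, 175 on the arcsinh scale, 184 with no filter, 172 with early as days 1 and 2, 129 in experiment A alone and 109 to 338 with an array left out. The 633 middle calls became 959 with the block, 398 in experiment A alone and 299 to 718 with an array left out. The 844 late calls became 1117 with the block, 522 in experiment A alone and 377 to 926 with an array left out, and the lowest counts early, middle and late were those without day 0 of experiment B. The 76 late against early became 184 with the block, 40 with no filter and 31 to 118 with an array left out. The 752 of the time course became 1241 with the block, 777 of 5675 tested at the higher floor, 661 of 5665 with a filter on 8 arrays and 463 to 916 with an array left out.

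With 2 day 0 arrays, each contrast with day 0 rests on both, and the experiments hold unequal shares of the phases. Hspb1 lay near the floor, and probe sets with names ending in f_at cannot tell relatives apart.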
